A study of Bos taurus with 43 samples.

Results

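Importin 9 (IPO9) and 5 related genes of nuclear import (IPO4, IPO7, IPO8, KPNB1 and KPNA2) were followed in biceps brachii muscle of 43 male cattle, 1 animal per array. These 6 genes are among 15050 genes that could be named on the single-colour bovine oligonucleotide array, and they are read by 7 of its 21475 probes. A probe was taken as a member where its gene name, its description or the symbol behind its accession was that of a member gene. The set was chosen by the IPO9 signal, which was already known to differ widely between animals with signs of corticosteroid treatment and cross-breed controls, and to be high in Holstein controls as well. The IPO9 differences between these groups are therefore given below as a description, with no test. The question asked of the other 5 genes was whether a shift of that kind is seen in them.

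The 4 positive animals (P21, P54, P56 and P57) are labelled as suspected of corticosteroid treatment, and the study's methods base this on dexamethasone in urine and on thymus histology. The 21 unknown animals were commercial beef cattle, mostly Charolais, Limousine or a mix of both, whose treatment is unknown. The negative controls were 5 cross-breed (Charolais by Limousine) bulls (K7, K8, K10, K11 and K12) and 13 Holstein animals, all from earlier controlled experiments. Neither dose nor duration of any treatment is given for the positive animals, and ages, which the study's methods give as ranges by group and the labels do not, were not analysed here. Breed, origin and treatment, and possibly age, thus changed together between the positive animals and the Holstein controls, and the whole muscle was sampled, so that fewer cells of a type and less RNA per cell cannot be told apart. All 10 probes of the 9 skeletal muscle marker genes on the array (ACTA1, CKM, DES, MB, TTN, MYH7, TNNT1, TNNT3 and TNNC2) were well above background on all 43 arrays. Their levels were not even, with 2 of the 10 probes called higher and 3 lower in the positive animals than in the cross-breed controls, 1 higher and 2 lower in the Holstein than in the cross-breed controls, and 2 lower in the positive animals than in the Holstein controls. Called means an adjusted p (limma) under 0.05 and at least 2-fold, which 28.1%, 20.6% and 17.8% of all probes met in these 3 comparisons. TNNC2, a troponin of fast fibres, changed by -4.49 in the positive animals against the cross-breed controls and by -5.00 against the Holstein controls, and TNNT3, also of fast fibres, by -2.72 and -1.25, the last of which was lost without any single positive animal and with slide or scan day as a random block, pairwise loess, normexp or a common fit of all 43 arrays.

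Proteins enter the nucleus through nuclear pores with the help of importins, which bind a cargo in the cytoplasm and release it in the nucleus when the small GTPase RAN in its GTP-bound form binds them. KPNB1 (importin beta 1) works either alone or with an importin alpha such as KPNA2, the adaptor that reads the classical nuclear localization signal, whereas IPO4, IPO7, IPO8 and IPO9 belong to the importin beta family and bind their cargo directly. IPO9 is known as a carrier of histones, ribosomal proteins and actin, IPO4 and IPO7 of histones and ribosomal proteins, and IPO8 of Argonaute proteins, and in muscle the actin carried by IPO9 is also a main cytoplasmic protein.

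The arrays themselves fell into sets that matter for what follows. They lay on 19 slides scanned on 13 days, and the slide numbers in the scanner headers form 2 ranges that are far apart. Range 1 holds 7 slides with 16 arrays, namely all 5 cross-breed controls and 11 unknown animals. Range 2 holds 12 slides with 27 arrays, namely the 4 positive animals, the 13 Holstein controls and the other 10 unknown animals. The cross-breed controls were scanned on 2 scanners that read no other array. Positive animals, Holstein controls and unknown animals were all read on a single scanner. Group, slide-number range and scanner therefore cannot be told apart in any comparison with the cross-breed controls. The positive animals and the Holstein controls share scanner and slide-number range, but no slide or scan day.

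The IPO9 probe (A_73_101258, listed in the files under LOC515804) gave a signal that was well above background on all 43 arrays and saturated on none. Its normalized log2 signal was 15.85 in P21, 15.65 in P54, 15.75 in P56 and 15.60 in P57. In the cross-breed controls it was 12.27 in K7, 12.32 in K8, 11.14 in K10, 12.80 in K11 and 11.90 in K12. In the 13 Holstein controls it ran from 15.50 to 16.53 with a median of 15.87. All positive animals and all Holstein controls thus lay above every cross-breed control, while positive animals and Holstein controls overlapped.

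On average, IPO9 was 15.71 ± 0.11 (SD, n = 4) in the positive animals, 15.93 ± 0.30 (SD, n = 13) in the Holstein controls and 12.08 ± 0.62 (SD, n = 5) in the controls of mixed breed. The positive animals stood 3.63 above the cross-breed controls on the log2 scale, which is 12.4-fold. The Holstein controls stood 3.85 above them, or 14.4-fold. Between the positive animals and the Holstein controls the difference was -0.22. Of 16354 probes that passed the filter on dim signals, 145 had a larger difference of either sign than IPO9 between positive animals and cross-breed controls, and 132 did so between Holstein and cross-breed controls. Both comparisons share the same 5 cross-breed controls.

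In the 21 unknown animals IPO9 ran from 12.48 to 16.06 with a median of 14.46. The 11 unknown animals on slides of range 1 lay between 12.48 and 14.46, with a median of 12.84. The 10 unknown animals on slides of range 2 lay between 14.68 and 16.06, with a median of 15.63. No IPO9 value of range 1 reached the lowest value of range 2, whether the animal was a control or not. In order of their means, Holstein controls, positive animals and unknown animals of range 2 (15.57 ± 0.43, SD, n = 10) overlapped with one another, as did the unknown animals of range 1 (13.17 ± 0.71, SD, n = 11) and the cross-breed controls, and there was no overlap between the first 3 sets and the other two. The 4 unknown animals hybridized on the 2 slides of the positive animals had IPO9 signals between 15.02 and 15.95, beside 15.60 to 15.85 in the positive animals.

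**Figure D1:**
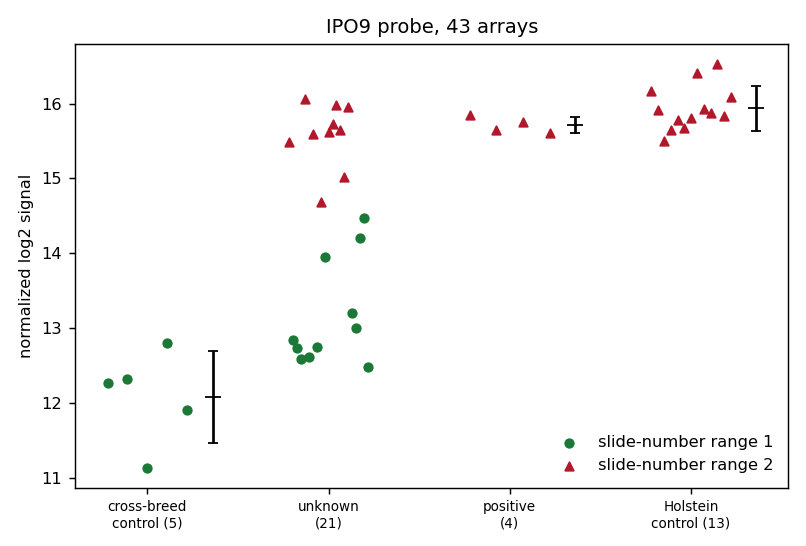
Normalized log2 signal of the IPO9 probe (vertical axis) for each of the 43 animals in the 4 groups, with circles for slides of number range 1 and triangles for range 2, and a bar for the mean ± SD of each group of known status. All circles lie at or below 14.46 and all triangles at or above 14.68.

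The same division was seen in 289 of 16354 probes, or 1.77%, whose signals did not overlap between both slide-number ranges. Of these, 204 were higher in range 2, as IPO9 was, and 85 were lower. None of the 6 probes of the relatives was among them. This division was chosen after the IPO9 values had been seen, and the labels do not say what the slide numbers stand for. The gap between both ranges for IPO9 was 0.22 on the log2 scale, was between 0.17 and 0.68 under 6 other ways of processing, and closed with normexp background correction, where it was -0.045, so that both ranges overlapped. The number of probes without overlap was 192 with cyclic loess fitted to each pair of arrays in turn (pairwise loess), 208 with normexp and 44 without normalization. ACTA1, the actin of skeletal muscle, was also without overlap, at 15.40 to 16.72 in range 1 and 17.19 to 18.21 in range 2, and was higher than in the cross-breed controls by 1.41 in the positive animals and 1.14 in the Holstein controls. Both ACTA1 calls were lost with pairwise loess and without normalization, and the Holstein call with quantile normalization too. The part of this in the IPO9 differences was not tested.

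Markers of fat cells moved with IPO9 between the control groups, and 3 of the 4 adipocyte probes tested were called higher in the positive animals and 4 of 4 in the Holstein controls, both against the cross-breed controls. Among all probes 14.4% and 10.9% were called higher in these comparisons. All 5 genes of the adipocyte list were on the array, and the mean log2 signal over their probes was 6.72 ± 0.48 (SD, n = 4) in the positive animals, 4.35 ± 0.64 (SD, n = 5) in the controls of mixed breed and 6.64 ± 1.0 (SD, n = 13) in the Holstein controls. It ran from 6.23 to 7.13, from 3.29 to 4.97 and from 4.95 to 8.24 in these groups. FABP4, the fatty acid carrier of fat cells, was higher by 5.23 in the positive animals and by 5.02 in the Holstein controls than in the cross-breed controls. CIDEC, a lipid droplet protein, was higher by 4.09 and 3.71. PLIN1 differed by 0.89 (not called) and 1.4, ADIPOQ by 2.62 and 2.42, and LEP, the hormone leptin of fat cells, did not pass the filter. LEP averaged 3.33 in the positive animals, 3.21 in the Holstein controls and 4.32 in the cross-breed controls, and so stood the other way. The ADIPOQ and PLIN1 calls were lost with normexp, those in the Holstein controls also without normalization, and that of ADIPOQ in the positive animals also with pairwise loess. ADIPOQ, a defining marker, was well above background in 1 of 5 cross-breed controls. In the unknown animals of slide-number range 1, where IPO9 was low, FABP4 averaged 9.11 ± 0.71 (SD, n = 11) and so stood near the 9.80 of the positive animals. The part of fat cells in the IPO9 differences was not tested. None of the 6 leukocyte probes was called by limma in any of the 3 comparisons, in which 28.1%, 20.6% and 17.8% of all probes were.

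IPO8, which is closely related to IPO7, showed no difference that passed the test. The IPO8 probe (A_73_108313) read 10.06 in P21, 10.47 in P54, 10.40 in P56 and 10.29 in P57. The cross-breed controls lay between 10.50 (K10) and 10.62 (K7 and K8), just above all positive animals. The Holstein controls ran from 10.20 to 10.64 with a median of 10.38, and the unknown animals from 10.02 to 10.69 with a median of 10.37. The difference from the cross-breed controls was -0.25 (standard error 0.13, limma adjusted p = 0.134) in the positive animals and -0.17 (standard error 0.083, adjusted p = 0.0915) in the Holstein controls, so that neither passed the test. Without normalization between arrays these differences grew to -1.46 and -1.13 and were called, while the median over all probes fell by 1.07 and 1.04.

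IPO7 is read by a pair of probes that did not behave alike. The first, A_73_101594, matched IPO7 by its description. It read 10.55 in P21, 10.65 in P54, 10.04 in P56 and 10.23 in P57, and in the cross-breed controls from 10.01 (K12) to 10.38 (K10). The Holstein controls ran from 9.96 to 10.77, with a median of 10.31. The groups overlapped in all 3 comparisons, and the differences of 0.19, 0.15 and 0.035 had limma adjusted p of 0.365, 0.313 and 0.869.

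The second IPO7 probe, A_73_120705, was described as importin-7 under a gene identifier (LOC531377) that the gene table used here does not hold, so that its target is less certain. It read 5.62 in P21, 5.66 in P54, 5.52 in P56 and 5.79 in P57. The cross-breed controls read 4.51 in K7, 5.23 in K8, 4.99 in K10, 6.07 in K11 and 4.80 in K12. The Holstein controls ran from 5.80 to 6.88 with a median of 6.49, above all positive animals. The Holstein controls were 1.32 higher than the cross-breed controls (standard error 0.21, limma adjusted p = 6.69e-05, 2.49-fold), although K11 lay within their span. With scaling to the 75th percentile this difference was 0.98, and with pairwise loess 0.85, both under 2-fold. It was 0.54 with normexp background correction and 0.057 without normalization. The positive animals were 0.79 lower than the Holstein controls (log2 change -0.79, standard error 0.17, adjusted p = 0.00172), which is under 2-fold. This difference was 0.013 with pairwise loess and -1.11 (called) with quantile normalization.

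IPO4, a histone carrier, showed no difference that passed the test. Its probe (A_73_112085) read 7.35 in P21, 7.48 in P54, 7.54 in P56 and 7.12 in P57. The cross-breed controls read 7.23 in K7, 7.10 in K8, 8.32 in K10, 7.15 in K11 and 7.76 in K12, and so spread more widely than the positive animals. The Holstein controls ran from 6.69 to 8.74 with a median of 7.62. The differences were -0.14 between positive animals and cross-breed controls, 0.16 between Holstein and cross-breed controls and -0.30 between positive animals and Holstein controls (limma adjusted p = 0.67, 0.648 and 0.412). Among unknown animals, IPO4 lay between 5.47 and 6.52 on slides of range 1 and between 6.93 and 7.57 on slides of range 2. The low unknown animals were below all 5 cross-breed controls, which were hybridized on slides of the same range 1.

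KPNA2, the importin alpha adaptor, was more variable in the Holstein controls than in any other group of known status. It read 9.59 in P21, 9.34 in P54, 9.46 in P56 and 9.65 in P57, beside 9.19 to 9.63 in the cross-breed controls. The Holstein controls ran from 9.50 to 12.52 with a median of 10.17 (mean 10.51 ± 0.94, SD, n = 13). They were 1.08 higher than the cross-breed controls (standard error 0.41, limma adjusted p = 0.0354, 2.12-fold), but the groups overlapped. The call was lost whichever cross-breed control was left out, with adjusted p between 0.0517 and 0.0771, with scan day as a random block (0.0553), with pairwise loess (change 0.96), with normexp (0.98) and without normalization (0.11). The positive animals differed from the cross-breed controls by 0.088 (adjusted p = 0.649) and from the Holstein controls by -0.99 (adjusted p = 0.0951), which was -1.41 and called with pairwise loess (adjusted p = 0.0127). Unknown animals of slide-number range 1 lay between 10.28 and 11.83, above all positive animals and all cross-breed controls.

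Some markers of connective tissue, and HBA among those of red blood cells, were also called between Holstein and cross-breed controls, as KPNA2 and the second IPO7 probe were. HBA was called in the positive animals as well, where KPNA2 and that IPO7 probe were not. Of 6 fibroblast probes tested, 3 were higher in the Holstein than in the cross-breed controls, among them COL3A1, a fibrillar collagen, by 1.51, and 4 were lower in the positive animals than in the Holstein controls. Among all probes 10.9% were called higher and 9.4% lower in these comparisons. Against the cross-breed controls, 1 was higher and 3 were lower in the positive animals, beside 14.4% and 13.8% of all probes. In this last comparison the COL3A1 call was lost with slide or scan day as a random block, pairwise loess or normexp, and without P56, P57, K8 or K11. In the Holstein controls it was lost without normalization, and that of 1 DCN probe (A_73_111861) without normalization and with normexp. The same DCN probe was the 1 called higher in the positive animals, which was lost with pairwise loess and without normalization. The mean over the 8 fibroblast probes was 9.47 in the Holstein controls (8.98 to 10.1), 8.59 in the cross-breed controls (7.92 to 9.70) and 7.83 in the positive animals (7.19 to 8.30). Of the 2 erythroid probes tested, HBA (alpha globin) was 1.67 higher in the Holstein controls and 1.71 higher in the positive animals than in the cross-breed controls (both lost without normalization). HBB (beta globin) was called in the positive animals in 9 of 22 alternatives and turned its sign with pairwise loess (-1.12), and it was not called in the Holstein controls. ALAS2, also of the erythroid list, did not pass the filter. Its averages were 1.49 (positive), 2.69 (Holstein) and 2.86 (cross-breed), and so stood the other way. None of these signals was well above background, so no direction is read from ALAS2. Over all 3 erythroid probes the means were 5.67 (Holstein, 4.71 to 7.57), 5.29 (positive, 5.01 to 5.55) and 4.845 (cross-breed, 4.36 to 5.13). The part of these connective tissue and red blood cell markers in the differences of KPNA2 and IPO7 was not tested.

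KPNB1, the partner of the importin alphas, was close to background on many arrays, and was the relative with the largest difference between positive animals and cross-breed controls. Its probe (A_73_109107) read 5.69 in P21, 5.53 in P54, 5.54 in P56 and 5.40 in P57. The cross-breed controls read 3.35 in K7, 4.51 in K8, 4.01 in K10, 4.70 in K11 and 4.43 in K12. The Holstein controls ran from 3.94 to 5.04, with a median of 4.34. Neither control group reached the lowest positive animal. The probe was well above background in 4 of 4 positive animals, 3 of 5 cross-breed controls and 7 of 13 Holstein controls.

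The positive animals were 1.34 higher in KPNB1 than the cross-breed controls (standard error 0.25, limma adjusted p = 0.00148, 2.53-fold) and 1.05 higher than the Holstein controls (standard error 0.19, adjusted p = 4.84e-04, 2.06-fold). Holstein and cross-breed controls differed by 0.29 (adjusted p = 0.272). This direction depended on the normalization. With pairwise loess in place of the fast method, KPNB1 was lower in the positive animals by 1.11 and 1.61 (log2 changes -1.11 and -1.61), and with normexp background correction the differences were 0.25 and 0.27, both under 2-fold. With 75th percentile scaling they were 2.28 and 2.40. In a common fit of all 43 arrays the adjusted p was 0.0646 and 0.104. Without P21 the difference from the Holstein controls was just under 2-fold (log2 change 0.997, adjusted p = 0.00332). The 4 unknown animals on the slides of the positive animals read 5.22 to 5.61, and unknown animals of slide-number range 1 read 2.49 to 4.02. The share of spots well above background was also higher on the arrays of the positive animals (74.9% to 89.4%) than on those of the cross-breed (62.9% to 73.6%) and Holstein controls (62.3% to 73.2%). Some endothelial markers were higher too. VWF, a clotting factor carrier made by endothelial cells, was 1.55 higher in the positive animals than in the cross-breed controls and 2.37 higher than in the Holstein controls, and it was the 1 endothelial probe of 4 called in the second comparison, with TEK (an angiopoietin receptor, 1.64 higher) also called in the first, beside 8.4% and 14.4% of all probes called higher in these comparisons. CDH5 differed by 0.74 and 0.95 and PECAM1 by -0.19 and 0.087, none of them called. Against the cross-breed controls the calls of VWF and TEK were lost without normalization, that of VWF also in the common fit of all 43 arrays and that of TEK with pairwise loess. The mean over all 4 ran from 9.95 to 10.85 in the positive animals, from 8.94 to 9.92 in the controls of mixed breed and from 8.52 to 10.06 in the Holstein controls, with group means of 10.42, 9.48 and 9.39. The part of these in the KPNB1 difference was not tested.

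**Figure D2:**
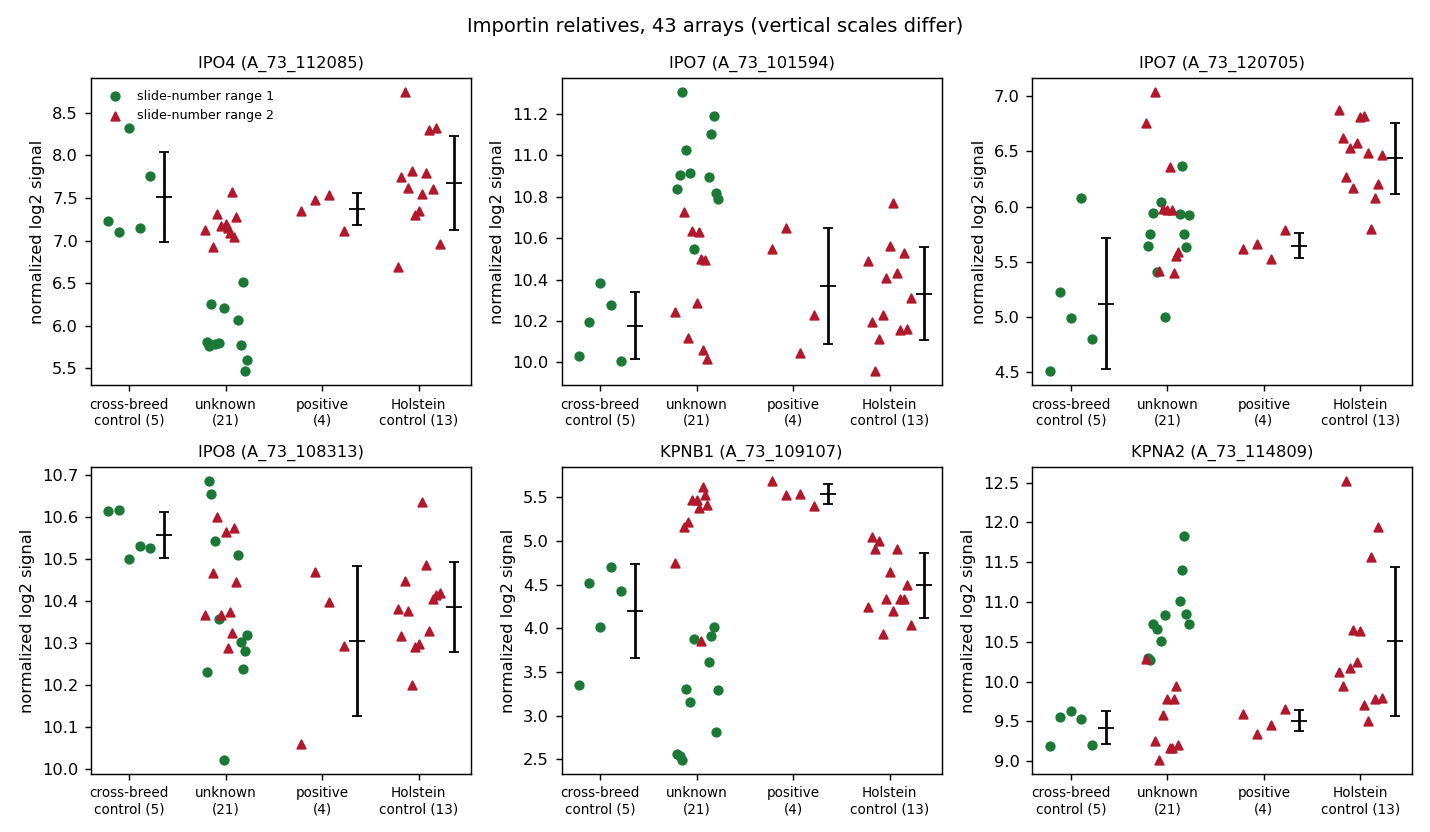
Normalized log2 signal (vertical axes, each with its own scale) of the 6 probes of IPO4, IPO7, IPO8, KPNB1 and KPNA2 in the 43 animals by group, with circles for slide-number range 1, triangles for range 2 and bars for mean ± SD of groups of known status. In no panel do circles and triangles separate as they do for IPO9.

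Counted over the 6 probes of the relatives, all of which passed the filter, the comparison of positive animals with cross-breed controls called 1 higher (KPNB1) and 0 lower. Among all 16354 probes tested, 28.1% were called, 14.4% higher and 13.8% lower. The comparison of Holstein with cross-breed controls called 2 of the 6 higher (KPNA2 and IPO7 by A_73_120705) and 0 lower, beside 20.6% of all probes, 10.9% higher and 9.69% lower. The comparison of positive animals with Holstein controls called 1 higher (KPNB1) and 0 lower, beside 17.8% of all probes, 8.4% higher and 9.4% lower. No relative was called in both comparisons with the cross-breed controls, and the largest change of a relative in these, 1.34, compares with 3.63 for IPO9.

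The balance of calls over all probes depended on the normalization. Of the probes called between positive animals and cross-breed controls, 51% were higher. This share was 69.1% with 75th percentile scaling, 39.1% with quantile normalization, 33.5% with pairwise loess and 12.4% without normalization. For Holstein against cross-breed controls it was 52.9%, and 35.4% and 3.66% with 75th percentile scaling and without normalization. For positive animals against Holstein controls it was 47.2%, and 82.8%, 35.7%, 28.5% and 70.9% with 75th percentile scaling, quantile normalization, pairwise loess and no normalization. The IPO9 difference from the cross-breed controls stayed between 2.72 and 3.91 in the positive animals and between 3.18 and 4.10 in the Holstein controls over these and the other alternatives.

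**Figure D3:**
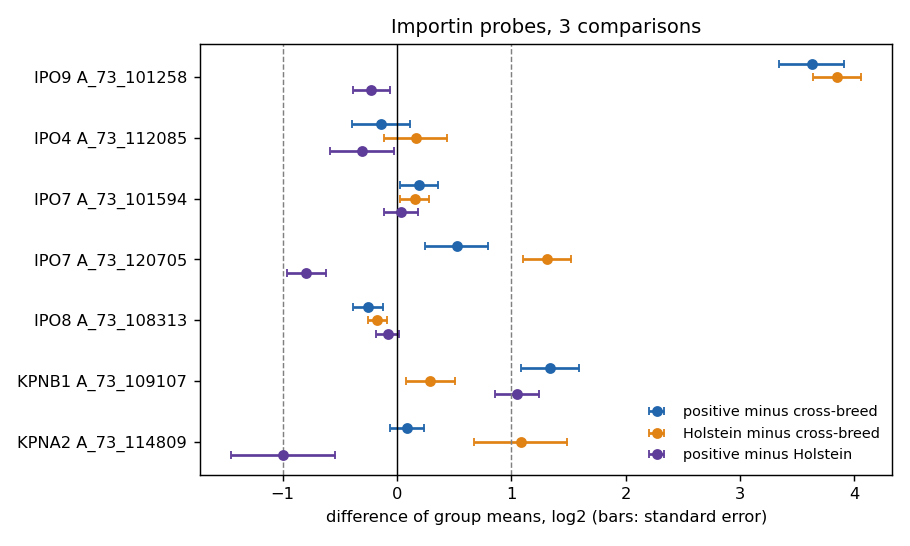
Difference of group means on the log2 scale (horizontal axis, bars are standard errors) for the 7 importin probes in the 3 comparisons, with dashed lines at 2-fold. IPO9 lies at 3.63 and 3.85 in the comparisons with the cross-breed controls and near 0 between positive animals and Holstein controls, and no relative lies beyond 1.34.

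**Figure D4:**
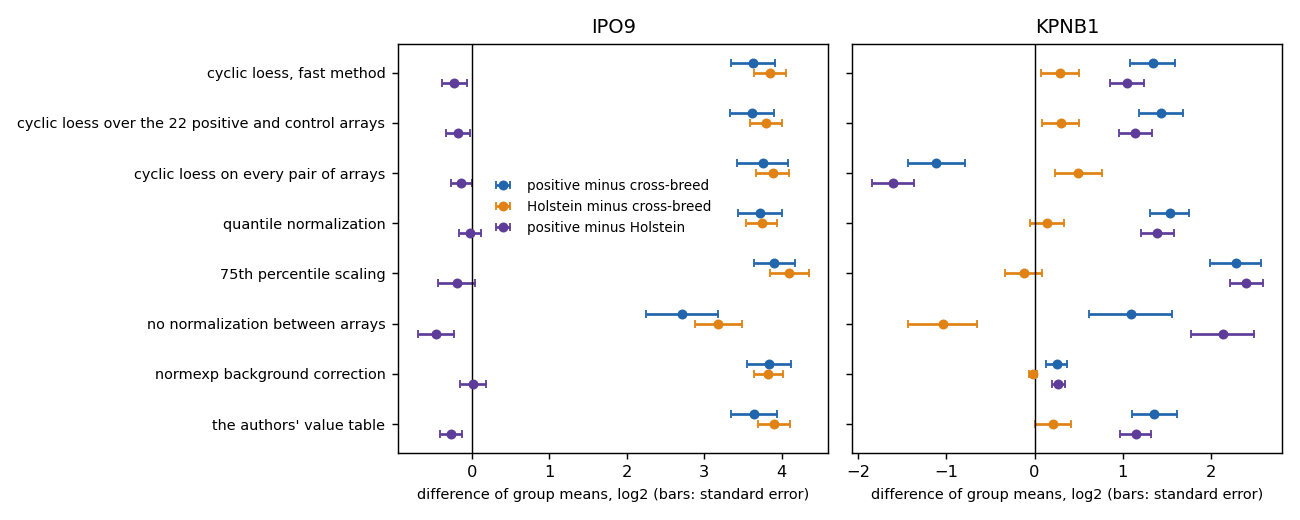
Difference of group means on the log2 scale (horizontal axis, bars are standard errors) for IPO9 and KPNB1 in the 3 comparisons under 8 ways of processing the same arrays. IPO9 stays above 2.7 against the cross-breed controls in each, whereas KPNB1 in the positive animals changes sign with pairwise loess.

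Across the 43 arrays, Pearson's r with IPO9 was 0.60 for KPNB1, 0.57 for IPO7 by A_73_120705, 0.46 for IPO4, -0.10 for KPNA2, -0.27 for IPO8 and -0.33 for IPO7 by A_73_101594. Within the 16 arrays of slide-number range 1 the r of KPNB1 was -0.18, and within the 27 arrays of range 2 it was -0.52. In the same order r was 0.33 and 0.35 for A_73_120705, -0.62 and 0.039 for IPO4, 0.70 and -0.072 for KPNA2, -0.61 and 0.014 for IPO8, and 0.46 and 0.14 for A_73_101594. These values share arrays, normalization and slide-number ranges and are given as a description.

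The probes most like IPO9 over the 43 arrays belonged to genes of other kinds. They were CACNA1B (a neuronal calcium channel subunit) and PHF12 (a chromatin-bound PHD finger protein), both at r = 0.98, PHOX2A (a homeobox factor of autonomic neurons) at 0.98, ZSWIM9 and RNF144A (a ubiquitin ligase) at 0.97, SCAMP4 (a membrane trafficking protein) at 0.97, and the adhesion receptors ADGRG7 and ADGRA1 at 0.96. CACNA1B averaged 12.8 in the cross-breed controls, 15.6 in the positive animals and 15.9 in the Holstein controls. PHF12 averaged 11.6, 16.8 and 16.6 in the same order. CACNA1B, PHF12, PHOX2A and ADGRG7 were, as IPO9, without overlap between slide-number ranges. The most opposed genes were TARS1 (threonyl-tRNA synthetase) at r = -0.93, RBP3 (a retinoid carrier) at -0.915, BANF1 (a chromatin-binding protein of the nuclear envelope) and CHFR (a mitotic checkpoint ubiquitin ligase), both at -0.91. Of 13300 named probes other than IPO9 that passed the filter, 90 had an r above 0.9.

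Genes that neighbour IPO9 on its chromosome, in the order given by RefSeq for the assembly ARS-UCD2.0, did not follow its pattern. On one side the nearest measured genes were SHISA4, LMOD1 (a muscle actin nucleator) and TIMM17A (a mitochondrial import subunit), and on the other NAV1, CSRP1 and PHLDA3. Their r with IPO9 lay between -0.64 (TIMM17A) and 0.078 (CSRP1). LMOD1 fell by 1.33 and TIMM17A by 1.67 in the positive animals against the cross-breed controls (limma adjusted p = 5.98e-05 and 0.00103), opposite to IPO9, and both calls were lost with normexp background correction, that of TIMM17A also with 75th percentile scaling. None of the 6 was called between Holstein and cross-breed controls. Among all probes 20.6% were called there, and 13.8% were called lower in the positive animals against the cross-breed controls. Beside these shares, calls among 6 probes are not read as a result.

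In the rest of the nuclear transport machinery a smaller share of probes was called than over the whole array in each comparison. Most of these calls were lower, which beside the shares of all probes given below is not read as a result. The shares called were not tested against those of the array as a whole. Of 57 genes on the array in 6 lists (other importin betas, other importin alphas, exportins, the RAN cycle, nucleoporins and cargo known for IPO9), 63 probes passed the filter. Between positive animals and cross-breed controls 2 of them were called higher and 11 lower (20.6%, beside 28.1% of all probes, of which 14.4% were higher and 13.8% lower), and their median log2 change was -0.044 beside -0.027 over all probes. Between Holstein and cross-breed controls 2 were higher and 6 lower (12.7% beside 20.6%, of which 10.9% higher and 9.69% lower), with a median of -0.094 beside 0.010. Between positive animals and Holstein controls none was higher and 6 were lower (9.52% beside 17.8%, of which 8.4% higher and 9.4% lower), with a median of -0.023 beside -0.046. No probe of these lists rose as far as IPO9 against the cross-breed controls.

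Other importin alphas are the adaptors that work with KPNB1. Of their 6 tested probes, 4 were lower in the positive animals than in the cross-breed controls, where 13.8% of all probes were called lower. KPNA4 fell by 1.72, KPNA1 by 1.5, KPNA6 by 1.43 and KPNA3 by 1.15 (limma adjusted p between 2.57e-05 and 5.76e-04). The called probes of KPNA1 and KPNA6 were dim, with averages of 4.26 and 4.58 in the positive animals, near the filter's limit of 4. The second probes of KPNA1 and KPNA6, which were brighter at 9.33 and 8.91, disagreed, with changes of 0.20 and -0.0045. A fall of these 2 genes is therefore not read from the called probes alone. The change of KPNA4 was 0.012 with pairwise loess, where the call of KPNA3 was lost too, and those of KPNA1 and KPNA6 were lost with 75th percentile scaling and with normexp. In the Holstein controls KPNA4 fell by 2.29 against the cross-breed controls (adjusted p = 2.30e-06), and no other probe of this list, which does not hold KPNA2, was called. Against the Holstein controls, KPNA6 fell by 1.33 and KPNA3 by 1.05 in the positive animals, and the KPNA6 call was lost with 75th percentile scaling, normexp and no normalization, the KPNA3 call with quantile normalization, pairwise loess and without P21.

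Among other importin betas, 1 of 9 tested probes was called between positive animals and cross-breed controls (11.1%, beside 28.1% of all probes), a TNPO1 (transportin 1) probe that fell by 1.09 (A_73_119931, limma adjusted p = 0.0129), while the other TNPO1 probe changed by -0.18. That call was lost without P21 or K11, and under 3 normalizations or background corrections. Between Holstein and cross-breed controls this TNPO1 probe fell by 1.16 and TNPO2 by 1.08. RANBP17, an importin beta of little known cargo, was called higher, with an average of 4.26 beside 2.70. The TNPO1 call was lost with pairwise loess, normexp and without K11, and the RANBP17 call with normexp and in the common fit of all 43 arrays. RANBP17 could be tested in 12 of 18 alternatives. It was well above background in 4 of 13 Holstein controls and in none of the 4 positive animals or 5 cross-breed controls. In the positive animals it averaged 1.845 and was called lower than in the Holstein controls, a call lost with normexp. Most Holstein signals were not well above background either, so no fold is given. Of these groups only the Holstein controls averaged above the filter's limit of 4, so neither RANBP17 call is read as a change. None of the 5 exportin probes, which read the receptors for nuclear export, was called in any of the 3 comparisons, in which 28.1%, 20.6% and 17.8% of all probes were. RAN itself fell by 1.83 in the positive animals against the cross-breed controls (adjusted p = 0.00141), with averages of 3.99 and 5.815. The positive animals thus averaged under the filter's limit of 4, so the size of this fall is uncertain. The RAN call was lost with 75th percentile scaling, normexp background correction and a common fit of all 43 arrays.

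Nucleoporins, the proteins of the pore, gave 2 higher and 4 lower calls of 32 tested probes between positive animals and cross-breed controls (18.8%, beside 28.1% of all probes). NUP160 fell by 1.26 by A_73_113720 and by 3.09 by A_73_102170. The latter probe averaged 1.84 in the positive animals and was not well above background in any of them, so no fold is given. Over the alternatives its change ran from -3.275 to -0.52. TPR, of the nuclear basket, fell by 1.05, a call that was lost without P21 and with pairwise loess. The NUP160 calls were lost with normexp, and that of A_73_113720 also with 75th percentile scaling. NUP188 was higher by 1.80 and NUP133 by 1.15, but NUP188 turned to -0.45 with pairwise loess and NUP133 to -0.099 without normalization. The NUP188 probe was dim, at 3.53 in the cross-breed controls, under the filter's limit of 4, and 5.32 in the positive animals. Both calls were also lost with normexp, and that of NUP133 with pairwise loess. In the Holstein controls TPR fell by 1.37 and NUP160 (A_73_102170) by 1.33 against the cross-breed controls, and NUP35 rose by 1.16. The NUP160 call was lost with normexp, and that of NUP35 with pairwise loess and without normalization. Between positive animals and Holstein controls 3 of 32 probes were lower, beside 9.4% of all probes. These were NUP160, by both probes, and NUP58. NUP160 fell by 1.15 by A_73_113720 and by 1.76 by A_73_102170, where the change ran from -1.93 to -0.17 over the alternatives. NUP58 fell by 1.04, which turned to 0.23 with 75th percentile scaling. Its call was also lost without P54, with loess over the 22 positive and control arrays, with normexp and without normalization. The called NUP58 probe averaged 3.95 in the positive animals, also under the limit of 4. The other NUP58 probes, at 9.21 and 11.06, changed by -0.26 and 0.13 and were not called. Both NUP160 calls were lost with normexp and without normalization, and that of A_73_113720 also with 75th percentile scaling and without P21.

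Of 4 known cargo genes of IPO9, ACTB (cytoplasmic beta actin) fell by 1.75 in the positive animals and by 1.16 in the Holstein controls against the cross-breed controls (limma adjusted p = 6.30e-05 and 6.65e-05), and both calls held under all alternatives tried. ACTB was the 1 cargo probe of 4 called in each of these comparisons (25%), beside 28.1% and 20.6% of all probes, so this count is near that of the whole array. CFL1 and CFL2, the cofilins that accompany actin, changed by -0.88 and -0.60 in the positive animals, and RPS7, a ribosomal protein, by 0.73, all under 2-fold.

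**Figure D5:**
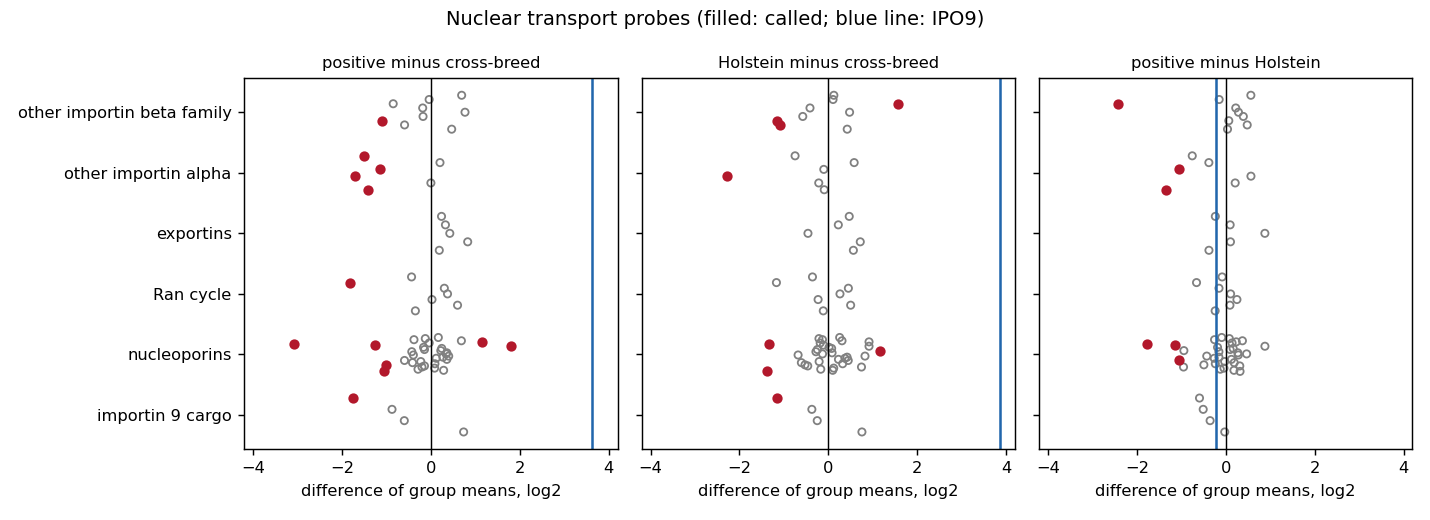
Difference of group means on the log2 scale (horizontal axis) for each tested probe of 6 nuclear transport lists in the 3 comparisons, filled where called, with the IPO9 difference as a vertical line. The filled points lie mostly left of 0 in the comparisons with the cross-breed controls, where none lies near IPO9.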

How the data were processed

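Per the file headers, each array was scanned with Agilent software that the authors ran to give a processed intensity per spot, corrected for background and for trends over the array, as linear values. Software versions differed, with 9.1.3.1 or 9.5.3.1 for the cross-breed controls and 9.5.1.1 for all other arrays. The authors also deposited a table of normalized intensity values, which was used as an alternative. Here the log2 of the processed intensity was taken, cyclic loess (fast method) was run on the 43 arrays together, the spots of each probe were averaged with outlier spots left out, and probes under 4 on at least 30 arrays were left out. The study's methods give this limit without its scale. It was read here as a log2 value, which removed 5121 probes, whereas on the linear scale (log2 of 2) it would remove none, as in the fit without a filter, and the number of transcripts that the study's own filter left differs from both. The study's methods name cyclic loess with all samples together but not its variant, so that the fast method was a choice made here. Groups were compared with limma 3.58.1 in R 4.3.3, with Benjamini-Hochberg adjustment over 16354 probes, and a probe was called at an adjusted p under 0.05 and at least 2-fold. The p-values measure the spread between these animals only. The fit was tested on simulated data with known changes.

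No fold is given for a probe that was not well above background on any array of a group. Probes were named through RefSeq identifiers or the files' descriptions, and no sequence was used. Members, lists and tests were chosen with earlier results of these data known. Besides all probes of members, at most 4 called genes per list and comparison, the 8 most alike and 4 most opposed genes and the 3 nearest measured genes on each side of IPO9 are named. Alternatives covered normalization, background correction, the filter, the samples in the fit, slide or scan day as a random block, outlier spots and leaving out single animals. Only positive animals and cross-breed controls were left out singly, and no Holstein control was. The division by slide-number range was added after the data were seen. The number of arrays limits the precision.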

Additional observations from a re-analysis of the deposited data

Results flagged for a closer look

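Signals of the unknown animals, which enter no comparison of groups, passed the highest of the 18 control animals for 4 probes. For IPO7 by A_73_101594 this was so in 10 of 21 animals, with a highest value of 11.30 beside 10.77 in the controls, and all 10 were on slides of number range 1. For KPNB1 it was so in 8 of 21 animals, with up to 5.61 beside 5.04, all on slides of range 2. For IPO8 it was so in 2 animals (10.69 beside 10.64) and for IPO7 by A_73_120705 in 1 animal (7.03 beside 6.88). No unknown animal passed the controls in IPO9, IPO4 or KPNA2. In 14 checks of the 7 probes in the positive animals and in the cross-breed controls, no single animal stood apart by Dixon's criterion, which chance alone meets in about 1 of 20 groups.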

How the results depend on the processing

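The IPO9 difference from the cross-breed controls kept its direction under all alternatives run, and moved by more than the spread between animals only without normalization, to 2.72 (positive) and 3.18 (Holstein). Leaving out single animals gave 3.39 to 3.81 and 3.61 to 4.03. Here and below, these were positive animals and cross-breed controls, and no Holstein control was left out. Between positive animals and Holstein controls the difference was -0.27 to -0.19 without single positive animals and 0.014 with normexp. The IPO9 gap between slide-number ranges was -0.045 with normexp.

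Called probes for positive against cross-breed numbered 4598, and 9828 without normalization, 1378 with normexp, 7590 without the filter and 4356 to 4655 without single animals. For Holstein against cross-breed they were 3361, and 8613, 1350 and 3155 to 3302 (no normalization, normexp, single animals). For positive against Holstein they were 2911, and 5638 with pairwise loess, 487 with normexp, 5843 without the filter, 1832 with the filter on signal well above background and 2581 to 2712 without single animals.

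Called relatives for positive against cross-breed were 1 of 6, and 5 without normalization and 0 with normexp, with the filter on signal well above background and with all 43 arrays in a common fit. For Holstein against cross-breed they were 2, and 1 with 75th percentile scaling, scan day as a block or any cross-breed control left out, and 0 with pairwise loess and normexp. Without normalization the count was the same but the genes were not. There KPNA2 (0.11) and IPO7 by A_73_120705 (0.057) were under 2-fold, and IPO8 was called lower (-1.13). For positive against Holstein they were 1, and 2 with quantile normalization and with pairwise loess, 0 with normexp, the stricter filter and the common fit, and 0 to 1 without single animals.

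Some relatives turned their sign. For positive against cross-breed, pairwise loess gave 0.25 (IPO4), -0.018 (IPO7, A_73_101594), -1.11 (KPNB1) and -0.44 (KPNA2); no normalization gave -1.01, -0.45 (both IPO7 probes) and -1.13 (KPNA2); quantile normalization gave -0.072 (IPO7, A_73_120705); and IPO4 was -0.24 to 0.062 without single animals. For Holstein against cross-breed, 75th percentile scaling gave -0.059 (IPO4) and -0.12 (KPNB1), no normalization -0.98 (IPO4), -0.80 (IPO7, A_73_101594) and -1.04 (KPNB1), and normexp -0.018 (KPNB1). For positive against Holstein, pairwise loess gave -0.13 and 0.013 (both IPO7 probes) and -1.61 (KPNB1), no normalization -0.21 (IPO7, A_73_101594), and single animals -0.059 to 0.14 (IPO7, A_73_101594) and -0.14 to 0.0017 (IPO8). The cause was not tested. Without the filter, and with normexp, all 21475 probes were tested. KPNB1 did not pass the stricter filter. No paired analysis was possible because the compared groups hold different animals and share no slide or scan day.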

Other observations

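Both spots of each importin probe agreed closely on most arrays. The median absolute difference between them was between 0.087 (IPO8) and 0.17 (KPNB1) on the log2 scale, and it was 0.12 for IPO9. The largest difference on a single array was 1.54 for IPO9 and 2.01 for KPNB1. Of the importin spots, 1, an IPO9 spot, was marked as an outlier by the scanner software and left out. It was on the array of animal 269, so that the 14.46 of this animal, the highest of slide-number range 1, rests on 1 spot. With outlier spots kept, the highest IPO9 value of range 1 was 14.20, and the lowest value of range 2 stood 0.48 above it.

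Between the low and the high IPO9 values, a few unknown animals lay in the middle. These were animals 58 (13.95), 266 (14.20) and 269 (14.46, from 1 spot) on slides of range 1, and 52 (14.68) and 79 (15.02) on slides of range 2. The array of animal 79 also had the lowest share of spots well above background, 40.2%.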
